A study of Mus musculus with 4 samples.

Results

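The collagen genes, which encode the α chains of the triple-helical proteins of the extracellular matrix, were examined in RNA-Seq of cerebral endothelial cells (ECs). The cells were isolated from mice with and without tamoxifen, given to induce endothelial deletion of Mgp. Genes were included when the symbol consisted of Col, a type number, the letter a and a chain number, which selected 44 of the 24873 genes listed. By the textbook classes, 11 encode fibrillar chains, 8 encode chains of the basement membrane and 25 encode other chains. All libraries came from mice with an inducible Cre driven by the VE-cadherin (Cdh5) promoter, which is active in ECs, together with floxed alleles of Mgp, given as Cdh5cre and Mgpflox/flox in the sample labels. Mgp encodes matrix Gla protein, a BMP inhibitor. From 10 weeks of age, tamoxifen mice were injected with 75 mg/kg on each of 5 days. Cells were collected for RNA-Seq on day 9, in a study of cerebral arteriovenous malformation (AVM). The control group carried the same alleles and received no tamoxifen, so that deletion and the drug itself cannot be told apart in this comparison. Each group had 2 libraries, which the study describes as independent, and each library was a pool of cells from 3 mice. The study's methods describe the cells as CD31+CD45-, whereas the labels describe them by a tdTomato reporter.

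Collagen chains assemble in threes into a helix in which glycine recurs as the first residue of each triplet, and secreted trimers build distinct structures. Fibrillar chains (types I, II, III, V, XI, XXIV and XXVII) form the banded fibrils of bone, cartilage, skin and the adventitia of vessels. Type IV chains form the sheet-like network of the basement membrane on which brain ECs and pericytes lie, and types XV and XVIII are proteoglycans of the basement membrane zone. The remaining chains decorate fibrils (the fibril-associated collagens with interrupted helices, or FACITs), form beaded filaments (type VI), build short-chain networks (types VIII and X), span the plasma membrane or anchor epithelia (type VII).

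This difference in architecture can be read in the coding sequences. Glycine is encoded by codons of the form GGN, and a run was counted as unbroken while each triplet of codons began with GGN. The longest unbroken run comprised 338 triplets in Col1a1 and ranged from 216 to 344 triplets over the 11 fibrillar chains. In the 6 type IV chains, by contrast, the longest run comprised 39 to 66 triplets, and each helix was divided into 23 to 27 runs of at least 3 triplets. The 2 stretches printed here show the contrast between the chains on which the comparison turned, with 90 coding bases each from the GENCODE M39 canonical transcripts on GRCm39, and capitals mark the GGN codons that belong to a run. The Col1a1 stretch (codons 675 to 704, counted from the start codon, in the middle of its longest run) kept the register throughout. The Col4a1 stretch (codons 148 to 177, at the end of its longest run) lost the register. Another run began in a different register before the stretch ended, and the GGN codons between the runs are left in lower case.
Col1a1: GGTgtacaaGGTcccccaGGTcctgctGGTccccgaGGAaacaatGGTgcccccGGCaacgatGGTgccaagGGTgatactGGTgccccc
Col4a1: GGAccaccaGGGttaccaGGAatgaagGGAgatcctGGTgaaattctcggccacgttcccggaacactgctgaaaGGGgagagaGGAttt

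The libraries, with reads recovered from the deposited values, held 35387438 to 49799321 reads on genes, so that 3 reads corresponded to 2.16 to 4.11 normalized counts. Markers of endothelial and other cell types moved with the groups, and their part in the collagen differences was not tested. In this paragraph, markers counted as higher or lower are those called by the limma test described below. That test called 28.6% of all genes tested higher and 16% lower. All 10 endothelial markers were lower in the tamoxifen group, and their summed level was 1070999 to 1075867 normalized counts in controls and 93464 to 185434 after tamoxifen, with Pecam1 (CD31) at 83681 and 88796 in controls and 15987 and 8973 after tamoxifen. All 8 pluripotency markers were higher, with sums of 79.4 to 115 and 42750 to 54965. Of 10 extraembryonic endoderm markers, 7 were higher and 2 lower. Their sums (25355 to 27742 and 21325 to 52666) were carried by few genes, since Dab2 and Sox7, the 2 that were lower, held most of the control sums and Ttr was at 7070 and 41530 after tamoxifen. Astrocyte markers were higher for 7 of 7 genes (28245 to 32787 and 142122 to 300494). Neuron markers were higher for 4 of 6 (607 to 856 and 5622 to 9416), with Snap25 and Syt1 not called. Tubb3 held most of the neuron sums after tamoxifen, at 4150 and 6497. Leukocyte markers were higher for 6 of 7 (857 to 1464 and 32546 to 40753). Ptprc (CD45) was at 50.7 and 83.9 in controls and 1423 and 1119 after tamoxifen. Mgp was at 1094 and 1352 normalized counts in controls and 945 and 909 after tamoxifen, a log2 fold change of -0.39 that did not pass the test (adjusted p = 0.0986) and that was 0.08 with the libraries rescaled to equal totals.

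Values below are normalized counts, with control libraries 1 and 2 followed by tamoxifen libraries 1 and 2. Of the 44 chains, 43 reached a mean of 10 normalized counts and were tested by limma, and a chain was called at a Benjamini-Hochberg adjusted p under 0.05 with an absolute log2 fold change over 1, on the log2(normalized count + 1) scale. Tamoxifen libraries had 29 chains called higher, against 28.6% of the 20485 genes tested, and 4 called lower, against 16% of all genes tested, or 33 in either direction, against 44.7%. The remaining 10 chains were not called. Both tamoxifen libraries lay above both control libraries for 31 chains (43.1% of all genes) and below both for 6 chains (39.2% of all genes), so that the groups did not overlap for 37 chains (82.3% of all genes). The median log2 fold change was 2.34 over the tested chains and 0.05 over all genes tested. Since RNA was taken from pools of cells, fewer cells of a type and less RNA per cell cannot be told apart in any of these values. With 1 tamoxifen library left out, fewer chains were called in each direction, as were fewer of all genes tested.

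The calls are given by class, with the difference between classes not tested. Fibrillar chains were called higher in 10 of 11 cases and lower in none, with a median log2 fold change of 2.86. Basement membrane chains split into 3 called higher, 3 called lower and 2 not called, with a median of -0.54 that was 0.03 without tamoxifen library 1. Other chains were called higher in 16 of 24 tested cases and lower in 1, with a median of 2.92.

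**Figure D1:**
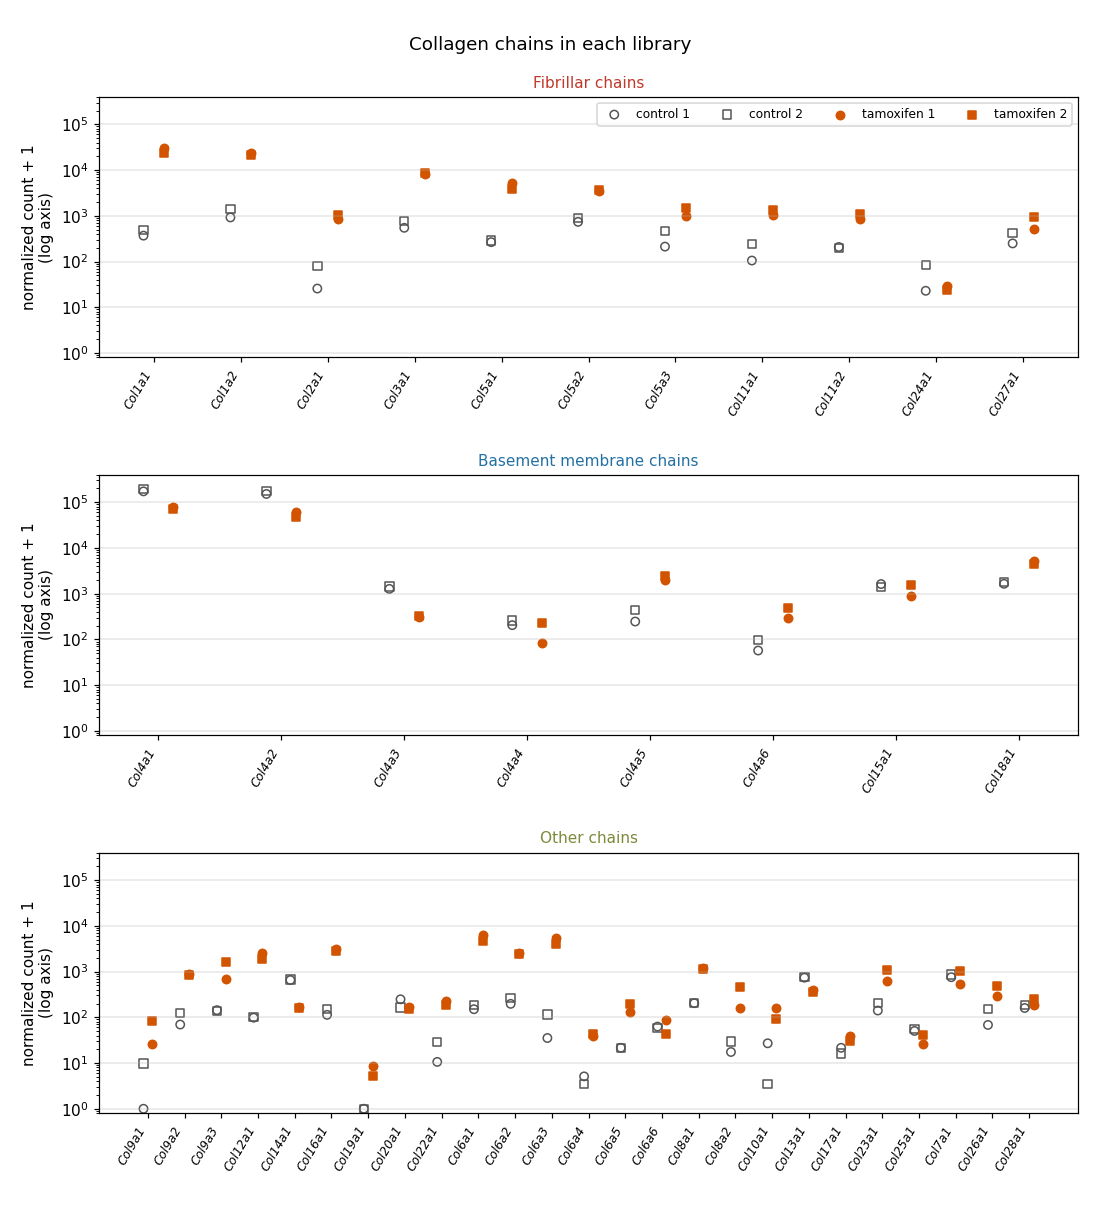
Normalized count plus 1 of each collagen chain (log axis) in the 2 control libraries (open symbols) and the 2 tamoxifen libraries (filled symbols), with fibrillar, basement membrane and other chains in separate panels. Col4a1 and Col4a2 have the highest counts in every library, and Col1a1 lies between 367 and 494 in controls and between 23125 and 29952 after tamoxifen.

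Among the major fibrillar chains, Col1a1 had the largest rise. Col1a1 encodes the α1 chain of type I collagen, the main protein of bone, tendon and scar, and was at 367 and 494 in controls and 29952 and 23125 after tamoxifen. Its log2 fold change was 5.95 (SE 0.20, adjusted p = 3.37e-06), or 61.6-fold. Its partner in the type I trimer, Col1a2, was at 920 and 1414 and then at 23747 and 20936, a log2 fold change of 4.29 (SE 0.22, adjusted p = 1.03e-05). Col3a1, the single chain of type III collagen that accompanies type I in vessel walls, was at 545 and 773 and then at 8252 and 8814 (log2 fold change 3.71, SE 0.20, adjusted p = 1.14e-05). Every one of these 3 genes was separated by more than the spread of its replicates. Col2a1, the chain of cartilage type II collagen, was low in the control at 24.7 and 77.6 and reached 867 and 1022 in the tamoxifen libraries. As a ratio, its control libraries differed from each other by more than those of the other major chains, and its log2 fold change of 4.39 had an SE of 0.51 (adjusted p = 0.000252). This call was lost without tamoxifen library 1 (adjusted p = 0.0746) or library 2 (adjusted p = 0.0856). Cartilage and bone markers outside the collagens were called higher for 9 of 9 tested genes, against 28.6% of all genes. Their sums were 1711 to 2202 in controls and 5886 to 8552 after tamoxifen. Sox9 held most of the control sums, at 1516 and 2044, and was at 3471 and 4283 after tamoxifen. Hapln1 was at 151 and 93.9 in controls and 1383 and 3372 after tamoxifen. Matn1, Matn3 and Ibsp were at 0 in both control libraries. Their part in the rise of Col2a1 was not tested.

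The sequences just upstream of Col1a1 and Col3a1 are shown because these chains of 1 fibril rose together from starts of different composition. Each comprises the 250 bases before the GENCODE M39 canonical start on GRCm39, 5′ to 3′ on the strand of the gene, outside any annotated exon. Col1a1 lies at chr11:94827050-94843868 on the plus strand, with its window at chr11:94826800-94827049, and Col3a1 at chr1:45350698-45395840 on the plus strand, with its window at chr1:45350448-45350697. Capitals mark 3 short motifs searched on both strands, none of which overlap here. The first is the CCAAT box (CCAAT, read on the other strand as ATTGG). The TATA box was searched as TATAAA (or TTTATA on the other strand). The GC box was searched as GGGCGG (or CCGCCC on the other strand).
Col1a1: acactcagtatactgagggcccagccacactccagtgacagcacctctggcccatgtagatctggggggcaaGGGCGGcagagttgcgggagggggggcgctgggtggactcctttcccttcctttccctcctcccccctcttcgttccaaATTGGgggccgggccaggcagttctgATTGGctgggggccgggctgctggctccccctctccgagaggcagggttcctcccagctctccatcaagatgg
Col3a1: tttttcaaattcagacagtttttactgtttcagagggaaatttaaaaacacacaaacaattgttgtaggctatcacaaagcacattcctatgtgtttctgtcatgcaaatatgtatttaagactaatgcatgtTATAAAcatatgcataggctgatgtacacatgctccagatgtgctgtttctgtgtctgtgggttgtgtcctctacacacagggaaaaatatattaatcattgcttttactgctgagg
The Col1a1 window held ATTGG starting at positions -99 and -73 (the base before the gene start is -1) and GGGCGG at -178, whereas the Col3a1 window held only TATAAA, at -117. Over windows of the same length for 16621 listed protein-coding genes, 35.5% held the CCAAT box, 8.37% the TATA box and 44.9% the GC box, and among the 44 collagen windows the counts were 15, 7 and 21. These matches describe the letters and no binding was measured. Bases past each annotated start were not searched, so a motif missing from a window may lie just outside it.

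The regulatory fibrillar chains, which are built into type I or type II fibrils and set their diameter, were all called higher (5 of 5, median log2 fold change 2.24). Col5a1 was at 264 and 288 in controls and 5300 and 3871 after tamoxifen (log2 fold change 4.03, SE 0.20, adjusted p = 9.49e-06). Col5a2, the other chain of the common type V trimer, was at 736 and 897 and then at 3461 and 3691, a smaller log2 fold change of 2.14 (SE 0.17, adjusted p = 5.58e-05). Col5a3, a less common type V chain, was at 211 and 457 and then at 1003 and 1447 (log2 fold change 1.95, SE 0.37, adjusted p = 0.00275). Col11a1 and Col11a2 encode the type XI chains that nucleate cartilage fibrils. Col11a1 was at 104 and 244 and then at 1018 and 1326 (log2 fold change 2.86, SE 0.39), and Col11a2 was at 207 and 195 and then at 844 and 1069 (log2 fold change 2.24, SE 0.23). For all 5 genes both tamoxifen libraries lay above both control libraries, as they did for 43.1% of all genes tested. The calls of Col5a3 and Col11a1 were lost when either tamoxifen library was left out, at adjusted p values of 0.109 to 0.165 and of 0.0831 to 0.105.

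The pair of chains with a shorter helix, types XXIV and XXVII, was the part of the fibrillar class that moved least. Col27a1, a chain of cartilage, was at 248 and 418 in controls and 509 and 949 after tamoxifen (log2 fold change 1.11, SE 0.37, adjusted p = 0.0319), with tamoxifen library 1 close to control library 2. This call was lost in 6 of 14 alternative settings. Col24a1 was at 21.9 and 82.6 and then at 28.2 and 23.0, with overlapping groups, and was not called (log2 fold change -0.73, 95% interval -2.37 to 0.91). Without control library 1 it was called lower (-1.66), and without control library 2 the value was 0.21. The longest glycine runs of these chains comprised 217 and 216 triplets, shorter than the 337 to 344 triplets of the other fibrillar chains.

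**Figure D2:**
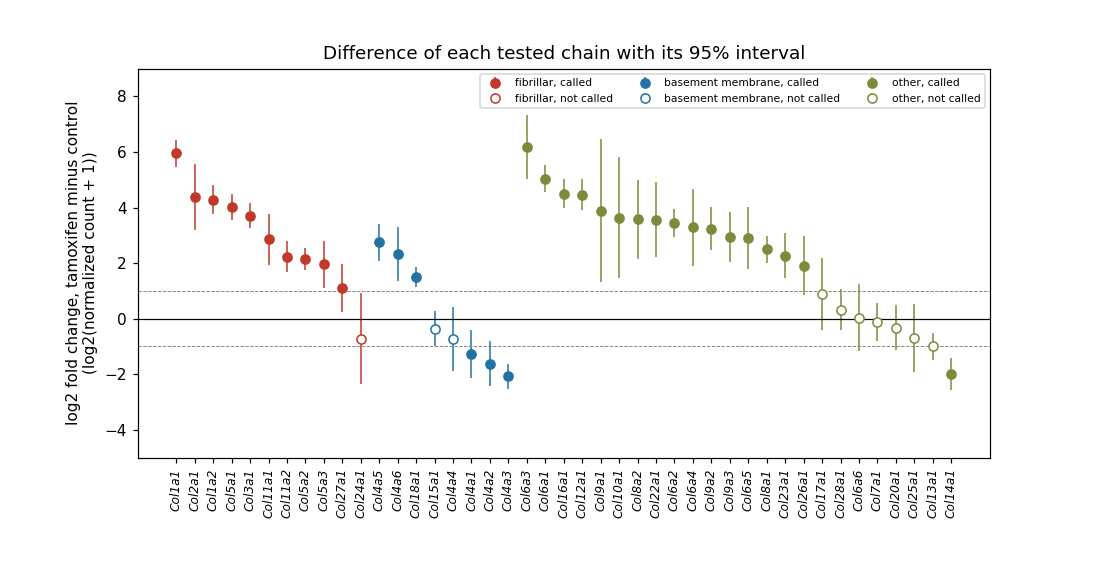
Log2 fold change (tamoxifen minus control, on the log2(normalized count + 1) scale) of the 43 tested chains with 95% intervals from limma, ordered within class, with filled points called and open points not called and dashed lines at 1 and -1. Fibrillar chains lie above 1 except Col24a1, whereas the basement membrane chains range from 2.75 for Col4a5 to -2.08 for Col4a3.

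The basement membrane chains were dominated by Col4a1 and Col4a2, which encode the 2 chains of the type IV network found around nearly all vessels. Col4a1 was at 172777 and 197344 in controls and 79648 and 72286 after tamoxifen. It was 2.43-fold lower (log2 fold change -1.28, SE 0.37, adjusted p = 0.0185). Col4a2 was at 151601 and 176768 and then at 59699 and 47818, or 3.06-fold lower (log2 fold change -1.62, SE 0.34, adjusted p = 0.00488). Both chains were thus below their control range in each tamoxifen library, and both remained the 2 chains with the highest counts. The call of Col4a1 was lost with each single library left out (adjusted p 0.0905 to 0.186), with equal totals (log2 fold change -0.81) and with quantile normalization (-0.01), and that of Col4a2 with quantile normalization (-0.28) and with 3 of the 4 libraries left out (adjusted p 0.0548 to 0.0683). Endothelial markers, all lower, moved in the same direction with a median log2 fold change of -2.96, and their part in the lower type IV chains was not tested.

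The other type IV chains lie in pairs that start head to head, and the pairs went different ways. Col4a3 and Col4a4, which join Col4a5 in the network of the kidney filter, had different calls. Col4a3 was at 1272 and 1433 in controls and 314 and 323 after tamoxifen, 4.23-fold lower (log2 fold change -2.08, SE 0.19, adjusted p = 0.000102), and the call held in all 14 alternative settings. Col4a4 was at 204 and 259 and then at 83.5 and 233, with tamoxifen library 2 inside the control range, and was not called (log2 fold change -0.72, 95% interval -1.87 to 0.43), although it was called lower with quantile normalization (-1.77). By contrast, both members of the X-linked pair were higher. Col4a5, the gene mutated in most Alport syndrome, was at 245 and 439 and then at 2008 and 2455 (log2 fold change 2.75, SE 0.29, adjusted p = 0.000156). Col4a6, which joins Col4a5 in smooth muscle basement membranes, was at 56.2 and 95.1 and then at 289 and 484 (log2 fold change 2.34, SE 0.42, adjusted p = 0.00205). The calls of Col4a5 and Col4a6 were lost when either tamoxifen library was left out (adjusted p 0.0549 to 0.0678 and 0.0716 to 0.116). Among pericyte and smooth muscle markers, 3 of 10 were called higher and 7 were not called, and the sum was 32548 to 60147 in controls and 40731 to 81252 after tamoxifen. Their part in the rise of Col4a6 was not tested.

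The 2 genes of the X-linked pair are separated by 1281 bases between starts that point away from each other, and the 250 bases before each start are shown because the pair rose together. Col4a5 lies at chrX:140258354-140472231 on the plus strand with its window at chrX:140258104-140258353, and Col4a6 at chrX:139948399-140257072 on the minus strand with its window at chrX:140257073-140257322 (GRCm39, GENCODE M39, capitals as above).
Col4a5: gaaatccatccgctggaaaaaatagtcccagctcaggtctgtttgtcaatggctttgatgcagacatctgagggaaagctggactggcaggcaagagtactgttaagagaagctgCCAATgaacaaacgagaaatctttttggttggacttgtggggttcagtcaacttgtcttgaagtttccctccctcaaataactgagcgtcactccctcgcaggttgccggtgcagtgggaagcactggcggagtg
Col4a6: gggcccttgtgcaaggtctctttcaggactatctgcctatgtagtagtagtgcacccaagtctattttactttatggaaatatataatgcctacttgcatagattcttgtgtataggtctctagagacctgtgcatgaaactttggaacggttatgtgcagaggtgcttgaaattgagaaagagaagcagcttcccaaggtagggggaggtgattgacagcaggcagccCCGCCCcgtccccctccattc
The Col4a5 window held CCAAT at -135, and the Col4a6 window held CCGCCC at -21 and none of the other letters. The windows lie within the 1281 bases that separate the genes and do not overlap. For the Col4a1 and Col4a2 pair on chromosome 8 and the Col4a4 and Col4a3 pair on chromosome 1, the annotated genes overlap by 356 and 159 bases, so that reads in those overlaps could not be assigned with certainty, since the strand setting of the counting was not given in the sources used here.

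The 2 basement membrane proteoglycans also differed. Col18a1, the source of endostatin, was at 1644 and 1786 in controls and 5263 and 4522 after tamoxifen (log2 fold change 1.51, SE 0.16, adjusted p = 0.000159), called in all 14 alternative settings. Col15a1 was at 1622 and 1407 and then at 883 and 1564, with overlapping groups, and was not called (log2 fold change -0.36, 95% interval -0.98 to 0.26). Its sign depended on the scaling, with a log2 fold change of 0.11 at equal totals.

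Because counts grow with transcript length, the make-up of the collagen signal was compared after dividing each count by the length of all annotated exons of the gene in kb. Collagens took 0.657% and 0.758% of all normalized counts in controls and 0.650% and 0.615% after tamoxifen. Within this total, basement membrane chains made up 97.9% and 97.7% of the length-scaled level in controls and 62.5% and 61.9% after tamoxifen. Fibrillar chains made up 0.804% and 1.02% and then 26.8% and 26.2%. Other chains made up 1.31% and 1.26% and then 10.7% and 11.8%. The groups did not overlap for any of the 3 shares, and the gap between groups exceeded the spread of their replicates many times. The two-sided exact permutation p was 0.333 for each share, the smallest that 2 libraries against 2 allow.

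**Figure D3:**
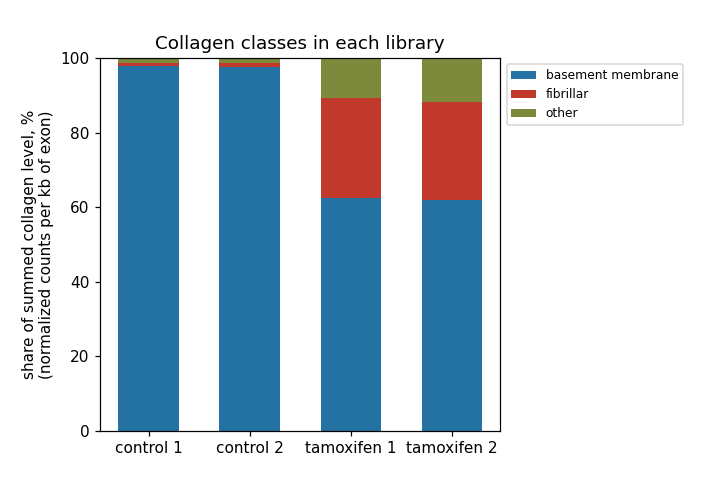
Share of the summed collagen level (normalized counts per kb of exon, in percent) taken by basement membrane, fibrillar and other chains in each of the 4 libraries. Basement membrane chains take 97.7% to 97.9% in controls and 61.9% to 62.5% after tamoxifen, and fibrillar chains 0.804% to 1.02% and 26.2% to 26.8%.

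By level per kb, the order of the chains changed below the first 2 ranks. Col4a1 held 50.5% and 49.9% of the collagen level in controls and 33.1% and 34.1% after tamoxifen, followed in each library by Col4a2 with 46.0%, 46.5%, 25.8% and 23.5%. Col1a1 moved from rank 11 to rank 3 by mean level per kb and held 0.122% and 0.142% and then 14.1% and 12.4%. Col1a2 moved from rank 8 to rank 4, and Col6a1 from rank 21 to rank 5. Col3a1 moved from rank 12 to rank 6 and Col6a3 from rank 33 to rank 10. These ranks depend on the length used and were not computed with the longest transcripts. All annotated exons span 10277 bases in Col3a1 and its longest transcript 5660, against 5847 and 5558 in Col6a1. Neighbouring ranks were not all separated by the libraries: Col3a1 was ahead of Col6a1 in tamoxifen library 2 and behind it in library 1.

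Some pairs of chains that share a trimer did not keep their proportions, while others overlapped between groups, and the ratios were not tested. The ratio of Col1a1 to Col1a2 levels per kb was 0.768 and 0.673 in controls and 2.43 and 2.13 after tamoxifen. Type I collagen usually contains more α1 than α2 chains. The size of this ratio depended on the length used, since the exons of all Col1a2 transcripts span 12650 bases and its longest transcript 5437. With the longest transcripts, the ratio was 0.366 and 0.320 and then 1.16 and 1.01. The ratio of Col5a1 to Col5a2 was 0.461 and 0.411 and then 1.96 and 1.34 (0.321 and 0.287 and then 1.37 and 0.938 with the longest transcripts), and that of Col6a1 to Col6a2 was 1.43 and 1.33 and then 4.75 and 3.68 (0.830 and 0.768 and then 2.75 and 2.13 with the longest transcripts). In each of these 3 pairs, both ratios after tamoxifen exceeded both control ratios. For Col4a1 to Col4a2, which form a trimer of 2 α1 chains and 1 α2 chain, the ratio was 1.10 and 1.07 and then 1.28 and 1.45, a smaller shift that also did not overlap. For Col8a1 to Col8a2 the groups overlapped (7.94 and 4.51, then 4.87 and 1.54). For Col9a1 to Col9a2 it was 0 and 0.0441 and then 0.0170 and 0.0583, with Col9a1 at the limit of detection in the control. The ratio of Col4a5 to Col4a6, added after the values were seen, was 3.73 and 3.94 and then 5.92 and 4.33, and that of Col4a3 to Col4a4, also added, was 7.15 and 6.34 and then 4.32 and 1.59.

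**Figure D4:**
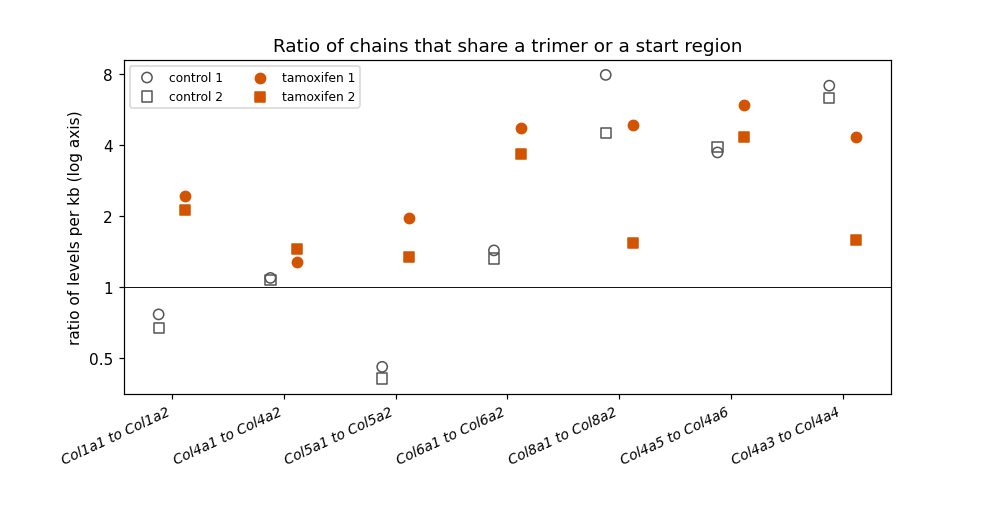
Ratio of levels per kb (log axis) of 7 pairs of chains that share a trimer or a start region in the 2 control (open) and 2 tamoxifen (filled) libraries, with the line at equal levels. The ratios of Col1a1 to Col1a2 and of Col5a1 to Col5a2 lie below 1 in the control (0.673 to 0.768 and 0.411 to 0.461) and above 1 in the tamoxifen libraries, and Col9a1 to Col9a2 is left out because Col9a1 was at 0 in control library 1.

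Type VI chains, which form beaded filaments between fibrils and cells, were called higher for 5 of 6 genes (median log2 fold change 3.37). Col6a3 had the largest rise of all tested collagen chains in the main run. It was at 34.2 and 115 in controls and 5328 and 3979 after tamoxifen (log2 fold change 6.17, SE 0.50, adjusted p = 6e-05). Over the alternative settings its log2 fold change was 5.31 to 7.03, overlapping the 5.73 to 6.42 of Col1a1. The call of Col6a3 was lost when either tamoxifen library was left out. Col6a1, which with Col6a2 and Col6a3 makes the common trimer, was at 149 and 185 and then at 6345 and 4768 (log2 fold change 5.04, SE 0.21, adjusted p = 5.97e-06). Col6a2, singled out here after its values were seen as the remaining chain of that trimer, was at 196 and 263 and then at 2514 and 2439 (log2 fold change 3.44). The 3 chains that can replace Col6a3 in the trimer, Col6a4, Col6a5 and Col6a6, lie next to each other on chromosome 9 and were at 2.5 to 61.6 in controls and 37.9 to 196 after tamoxifen. Col6a4 and Col6a5 were called higher (Col6a5 not without tamoxifen library 2, adjusted p = 0.0636) and Col6a6 was not (log2 fold change 0.04, 95% interval -1.16 to 1.24). Col6a4 rested on 5 reads in controls and 95 after tamoxifen, a scaled ratio of 12.6 with a counting interval of 5.2 to 39.6.

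The FACITs, which attach to fibril surfaces, were called higher for 6 of 8 tested genes and lower for 1. Col16a1 was at 112 and 149 in controls and 3125 and 2779 after tamoxifen (log2 fold change 4.50, SE 0.22, adjusted p = 9.03e-06). Col12a1, a chain of tendon and other dense connective tissue, was at 97.3 and 100.1 and then at 2604 and 1871 (log2 fold change 4.47, SE 0.24, adjusted p = 1.26e-05). Both were separated from the control by far more than the spread of replicates. Col9a1, Col9a2 and Col9a3, which coat the type II fibrils of cartilage, and Col22a1, found at tissue junctions such as that of muscle and tendon, were also called higher, with log2 fold changes of 2.93 to 3.89. The calls of Col9a2 and Col22a1 were lost when either tamoxifen library was left out (adjusted p 0.0568 to 0.0593 and 0.0945 to 0.0995). Col9a1 had 0 counts in control library 1 and 8.76 in control library 2, and its call was lost in 5 of 13 alternatives. Col14a1 was the only chain outside type IV called lower, and was singled out after its values were seen. This chain binds type I fibrils and was at 652 and 667 and then at 170 and 161 (log2 fold change -1.99, SE 0.24, adjusted p = 0.000315), so it went against its relative Col12a1, and both calls held in all 14 alternatives. Col20a1 was not called, with a log2 fold change of -0.33 (95% interval -1.14 to 0.48) that was 0.14 at equal totals and -1.45 with quantile normalization, where it was called lower. Col19a1, a rare chain of basement membrane zones, was not tested. It had 0 reads in both control libraries and 7.59 and 4.31 normalized counts in the tamoxifen libraries (13 reads), at least 1.51-fold higher against the floor of 3 reads per library.

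All 3 chains of the short-chain networks were called higher. Col8a1, a chain of the matrix beneath ECs and in injured vessel walls, was at 203 and 202 in controls and 1188 and 1112 after tamoxifen (log2 fold change 2.50, SE 0.21, adjusted p = 7.05e-05). Col8a2, known from the corneal endothelium, was at 16.4 and 28.8 and then at 157 and 464 (log2 fold change 3.57, SE 0.61, adjusted p = 0.00166). The replicates of Col8a1 were close in both groups, whereas those of Col8a2 differed widely in the tamoxifen group, and its call was lost without tamoxifen library 2 (adjusted p = 0.0853). Col10a1, the chain of hypertrophic cartilage, had a log2 fold change of 3.64 (SE 0.94), with control libraries at 26 and 2.5, and its call was lost in 4 of 13 alternatives.

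Of the 4 transmembrane chains, 1 was called higher and none lower. Col23a1 was at 140 and 204 in controls and 617 and 1091 after tamoxifen (log2 fold change 2.27, SE 0.34, adjusted p = 0.000872), a call lost without tamoxifen library 2 (adjusted p = 0.080). Col13a1, a chain of adhesion sites and of the neuromuscular junction, was at 734 and 752 and then at 391 and 353. It had an adjusted p of 0.00425 and a log2 fold change of -0.998, which just missed the size required for a call, and it was called lower with edgeR, with quantile normalization and without control library 1. Col17a1 (hemidesmosomes) and Col25a1 (neurons) were at 15 to 53.8 normalized counts in all libraries and were not called, with log2 fold changes of 0.89 and -0.68, although Col25a1 was called lower with quantile normalization (-1.66).

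Of the last 3 chains, 1 was called. Col26a1 was at 67.1 and 150 in controls and 295 and 487 after tamoxifen (log2 fold change 1.90, SE 0.46, adjusted p = 0.00861), a call lost in 3 of 14 alternatives. Col28a1 was at 159 and 183 and then at 187 and 245, and was not called (log2 fold change 0.33, 95% interval -0.42 to 1.08). Col7a1, the anchoring fibril chain of the skin, was at 752 and 869 and then at 540 and 1022, and was not called (log2 fold change -0.12, 95% interval -0.82 to 0.58). Their tamoxifen libraries thus lay on either side of the control values for Col7a1 and just above them for Col28a1.

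To place the chains in their pathway, 52 genes that modify, secrete, process, cross-link or bind collagen were examined, of which 50 were listed and tested. After tamoxifen, 27 were called higher (28.6% of all genes) and 5 were called lower (16% of all genes). The calls in either direction were 32 (44.7% of all genes). With either tamoxifen library left out they were fewer, as were the calls over all genes. The counts are given by step of the pathway, and the difference between steps was not tested.

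Inside the cell, 4 of the 14 hydroxylation and glycosylation genes were called higher and 2 lower, shares close to those of all genes. P4hb, the shared subunit of prolyl 4-hydroxylase that makes the helix stable at body temperature, was at 19552 and 22250 in controls and 29348 and 23775 after tamoxifen and was not called (log2 fold change 0.34, adjusted p = 0.212) except with quantile normalization (1.14). P4ha3, a catalytic subunit of the same enzyme, was at 16.4 and 33.8 and then at 154 and 362 (log2 fold change 3.27, SE 0.58), a call lost without either tamoxifen library. Plod1, a lysyl hydroxylase, was at 14479 and 15192 and then at 6568 and 5402 (log2 fold change -1.32, SE 0.18), lost at equal totals (-0.85) and with quantile normalization (-0.77). Of 8 folding and secretion genes, 2 were called higher and none lower. Serpinh1, which encodes the collagen chaperone HSP47, was at 32706 and 31299 and then at 19092 and 16775 (log2 fold change -0.84, adjusted p = 0.0094, under the size required). Mia3, which encodes the cargo receptor TANGO1, was likewise below the size required (log2 fold change -0.64), whereas Creb3l1, a transcription factor of the secretory pathway, was at 97.3 and 125 and then at 714 and 855 (log2 fold change 2.81, SE 0.28).

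Outside the cell, 5 of 7 propeptide cleavage genes were called higher. Pcolce, which enhances removal of the C-propeptide, was at 260 and 394 in controls and 8526 and 6023 after tamoxifen (log2 fold change 4.48, SE 0.25, adjusted p = 1.35e-05), and Pcolce2 had a log2 fold change of 5.07 (SE 0.54), lost without tamoxifen library 2 (adjusted p = 0.0502). The protease itself, Bmp1, was at 1987 and 2124 and then at 3174 and 3990, under the size required (log2 fold change 0.79), and was called with equal totals (1.26). Of 5 cross-linking genes, 4 were called higher. Lox, the lysyl oxidase that starts covalent cross-links, was at 45.2 and 52.6 and then at 2855 and 1779 (log2 fold change 5.50, SE 0.30, adjusted p = 1.27e-05), and Loxl2, which acts on type IV collagen, had a log2 fold change of 1.62 (SE 0.18). All 6 fibril-binding proteoglycans were called higher. Among them Bgn was at 2448 and 4280 and then at 11541 and 10095 (a call lost without either tamoxifen library), Dcn at 137 and 207 and then at 3828 and 3183, and Ogn at 42.5 and 52.6 and then at 1447 and 896. Dcn is also a member of the fibroblast marker list, of which 8 of 10 genes were called higher and 1, Foxc1, lower, with Dpt at 0 in both control libraries. Foxc1 alone, at 9959 and 9348 in controls and 2094 and 1367 after tamoxifen, held most of the list's control sums of 10892 and 10468, and the sums were 12346 and 11037 after tamoxifen. Whether fibroblasts took part in the rise of the fibrillar chains was not tested.

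Receptors for collagen went both ways, with 6 of 10 called higher and 3 lower. Itga1, the α1 subunit of the integrin that binds type IV and type I collagen, was at 36077 and 33587 in controls and 8417 and 8800 after tamoxifen (log2 fold change -2.02, SE 0.18, adjusted p = 9.7e-05). Mrc2, which encodes the endocytic collagen receptor Endo180, was at 405 and 720 and then at 5838 and 5007 (log2 fold change 3.32, SE 0.27, adjusted p = 5.87e-05). The call of Itga1 held in every alternative run. Adgrg1, a receptor for type III collagen, was at 17220 and 21939 and then at 7620 and 12094 (log2 fold change -1.02, SE 0.26, adjusted p = 0.0108), and its call was lost with equal totals (-0.55), quantile normalization (-0.39), no trend, edgeR, DESeq2 and 3 of the 4 libraries left out.

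**Figure D5:**
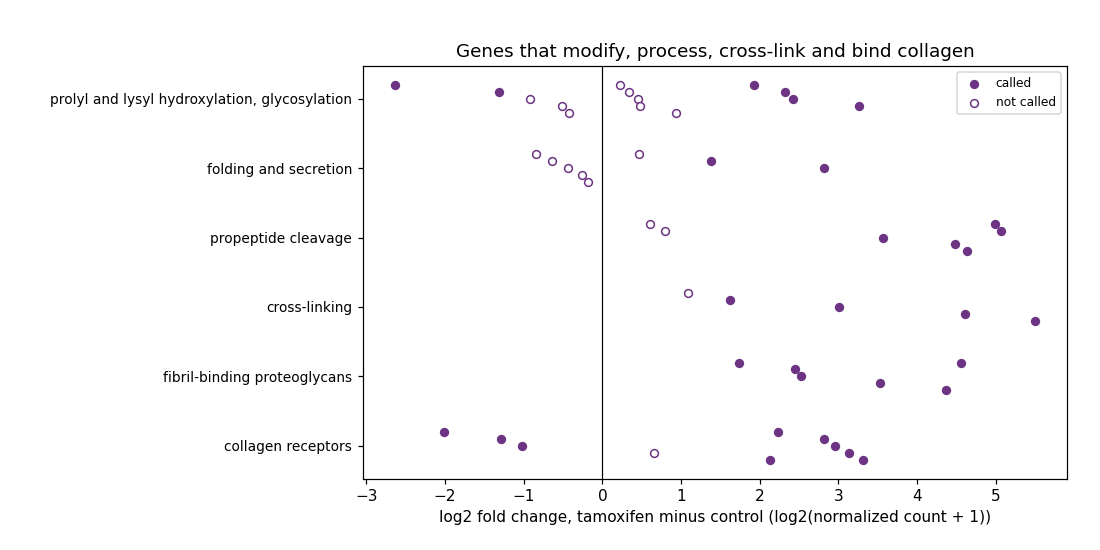
Log2 fold change (tamoxifen minus control, on the log2(normalized count + 1) scale) of the 50 tested genes that modify, secrete, process, cross-link and bind collagen, 1 point per gene in 6 lists, with filled points called and open points not called. All 6 proteoglycans and 4 of 5 cross-linking genes are called higher, while Itga1 lies at -2.02 among the receptors.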

How the data were processed

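RNA was sequenced from 4 libraries, 2 control and 2 tamoxifen, prepared with a stranded mRNA kit. Per the study's methods, the authors aligned reads to GRCm39 with STAR 2.7.10a, counted reads during alignment, left out genes of low count and then scaled the libraries in DESeq2 1.36.0. The deposited values are these normalized counts, treated as a signal per gene rather than as raw counts. The column letter A is not in the labels and was read as AVM, the tamoxifen group, and C as control, and the numbers of the A columns are not tied to labelled samples. The values were whole multiples of 1 read in 100.0% of cases (tolerance 0.01), which gave back the reads.

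limma 3.58.1 (eBayes with trend, R 4.3.3) was run on log2(normalized count + 1) of 20485 genes whose mean was 10 or more, without a block. Alternatives were pseudocounts of 0.5 and 5, no filter or a mean of 100, equal totals, quantile normalization, no trend, a replicate block, each library left out, and edgeR 4.0.16 and DESeq2 1.42.0 on the recovered reads. With 1 library left out, the lone library was assumed to vary like the other group. Test steps were run on simulated data in which few genes changed, none of them of low count. That check does not measure the error of the calls made here. Lengths came from GENCODE M39, a release the authors may not have used. All collagen chains were named, with values per library for fibrillar and basement membrane chains and for the 2 highest chains of each other subclass, and in each pathway list the 2 highest genes and the largest change. The members and lists were chosen with earlier results of these data known. Each library was a pool of cells from 3 mice, so p-values measure the spread between pools, not between single mice. Intervals on reads cover counting error only. Columns numbered alike did not deviate together (r = 0.03 over genes).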

Additional observations from a re-analysis of the deposited data

How the results depend on the processing

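DESeq2, the pseudocounts of 0.5 and 5 and the replicate block left the call of all 43 tested chains as it was. The block gave 29 chains higher and 4 lower and 9525 genes called in all. Columns numbered alike did not deviate together (r = 0.03), which cannot show whether libraries were prepared in pairs. The 9151 genes called became 9241 with edgeR, 8739 with DESeq2, 5934 with a mean of at least 100 (where fewer genes were tested) and 4147 to 9700 with 1 library left out. Leaving out 1 library gave 14 to 29 chains higher, 2 to 5 lower, and 13 to 34 pathway genes called against 32, with fewer residual degrees of freedom. Calls over all genes were 5867 higher and 3284 lower, 7206 and 1838 with equal totals, and 4723 and 5276 with quantile normalization. The median of all genes shifted by 0.47 with equal totals, -0.25 with quantile normalization and 0.12 with no filter.

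The fibrillar median was 3.28 with a mean of at least 100, 3.33 with equal totals, 2.21 with quantile normalization and 2.28 to 3.47 with 1 library left out. The basement membrane median was -0.070 with equal totals, -0.14 with quantile normalization and -0.99 to 0.034 with 1 library left out, reversed without tamoxifen library 1. The median of other chains was 2.55 with pseudocount 5, 3.38 with equal totals, 2.04 with quantile normalization, 3.02 with edgeR, 3.05 with DESeq2 and 2.59 to 3.21 with 1 library left out. With the longest transcript as length, the mean ratio was 0.343 and 1.08 (control and tamoxifen) for Col1a1 to Col1a2, 1.15 in the control for Col4a1 to Col4a2, 0.304 and 1.15 for Col5a1 to Col5a2, and 0.799 and 2.44 for Col6a1 to Col6a2. The 3 class shares kept their direction.

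Reversed signs, all in genes that were not called, were Col15a1 at 0.11, Col20a1 at 0.14, Col7a1 at 0.35 and Mgp at 0.079 with equal totals, and Col6a6 at -1.0 and Col28a1 at -0.87 with quantile normalization. With 1 library left out, signs also changed for Col24a1 (-1.66 to 0.21), Col4a4 (-1.45 to 0.018), Col15a1 (-0.77 to 0.050), Col6a6 (-0.46 to 0.53) and Col7a1 (-0.58 to 0.34). Why values moved with the scaling was not tested. Chains with few reads, such as Col19a1, Col6a4 and Col9a1, are limited by depth.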
